A study of Mus musculus with 16 samples.

Results

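The comparison described here is that of the culture dish in M-CSF differentiated bone marrow derived macrophages (M-BMDMs) upon LPS challenge. It rests on 4 of the 16 RNA-seq libraries of the series, 2 labelled M-noTC-LPS and 2 labelled M-TC-LPS, chosen by their sample labels, and was described over the 12514 genes tested of 22287 in the deposited table. In both groups, bone marrow of 8 week old C57BL/6J mice was cultured for 7 days with 50 ng/ml M-CSF, a growth factor that drives monocytic precursors to become macrophages, and then treated for 3 h with 100 ng/ml LPS, the bacterial cell wall component sensed by TLR4. M-TC-LPS cells were grown on polystyrene treated for tissue culture (TC), a hydrophilic surface that promotes attachment, and M-noTC-LPS cells on untreated, hydrophobic polystyrene (noTC). The dish was thus present through all 7 days of maturation and not only during LPS. Other libraries of the series, used below where the dish effect is set beside that in other cells, are vehicle-treated M-BMDMs on both dishes (steady state) and macrophages matured with 20 ng/ml GM-CSF and given the same LPS on both dishes. The study calls the 2 libraries of a group biological replicates, while the number of mice behind a library and whether cultures were separate are not given in the sources used here, so p-values measure the spread between these samples.

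LPS binds TLR4 with CD14 and MD-2 and signals through MyD88 and TRIF to NFκB, MAP kinases and IRF3. Within hours, macrophages transcribe cytokines, chemokines and IFN-β, the last of which induces a further set of antiviral genes. Negative regulators of the same pathways, such as IκBα, A20, SOCS3 and IRAK-M, are induced alongside. M-CSF is also a mitogen for macrophages, and LPS is known to halt their cell cycle. NRF2, a transcription factor released from KEAP1 by electrophiles and oxidants, induces genes of glutathione and thioredoxin metabolism and is also active in LPS-treated macrophages.

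Total counts were 23149399 and 24321576 in M-noTC-LPS and 25727439 and 22129709 in M-TC-LPS. At this depth, 3 counts correspond to 0.148 to 0.174 CPM (counts scaled to a common library size), a floor that covers counting error only. Below, all levels are CPM after scaling with edgeR's TMM factors, and all fold changes are noTC over TC on the log2 scale ± SE from edgeR's quasi-likelihood fit over the 16 libraries. A gene is called higher or lower on noTC where the p of that fit, with Benjamini-Hochberg (BH) adjustment over all genes tested, was under 0.05. With 2 libraries per group the smallest two-sided p of an exact permutation test is 0.333, so single values are given no test of that kind. The 10 macrophage markers (Adgre1, Csf1r, Cd68, Itgam, Mertk, Fcgr1, Lyz2, Mrc1, Cd14 and Aif1) were all expressed, with summed levels of 23344 and 24787 CPM on noTC and 30475 and 29668 CPM on TC. Among them 8 were lower and 1 higher on noTC. Markers of other cell types were scarce. Neutrophil markers summed to 31.8 and 33.5 CPM on noTC and 62.3 and 54.9 CPM on TC. The 1 called member of this list was Lcn2 (-1.32), a gene that LPS-treated macrophages also express, while Mpo, Elane, Ly6g, Cxcr2, Camp and Prtn3 had at most 3 counts in each library. Fibroblast and stromal markers summed to 39.1 and 44.5 CPM on noTC against 53.1 and 57.4 CPM on TC with 1 member called lower (Pdgfrb, -0.72), megakaryocyte markers to 126 and 117 against 152 and 142 CPM with 1 called lower (Vwf, -0.28), and endothelial markers to 124 and 137 against 104 and 108 CPM with 1 called higher (Kdr, 0.38). No member was called among the markers of mast cells and basophils (48.1 to 49.8 CPM), dendritic cells (3.14 to 4.74 CPM), B cells (0.449 to 0.814 CPM), T and NK cells (1.18 to 1.57 CPM), erythroid cells (0.148 to 0.616 CPM) or heart and skeletal muscle (1.95 to 3.15 CPM). The part of these cells in the results below was not tested. In bulk RNA, fewer cells of a type cannot be told apart from less RNA per cell.

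Upon LPS challenge, M-BMDMs on noTC dishes had higher levels of genes of DNA replication, mitosis, nucleotide and serine synthesis and of Lpl, Ccnd1, Rgs2 and Itgax. They had lower levels of NRF2 and metal response genes and of Apoe, Selenop, Stab1, Slc7a11 and complement C1q. Most genes in a list of NFκB subunits, inhibitors and LPS feedback genes were also lower. In numbers, 1298 genes (10.4% of the 12514 tested) were higher and 1619 (12.9%) lower on noTC. Most differences were small. The median fold was 1.36 among the higher and 1.24 among the lower genes, and 2233 of the 2917 called genes lay within 1.5-fold. Above 1.5-fold, 442 genes (3.53%) were higher and 242 (1.93%) lower, and above 2-fold 146 (1.17%) and 81 (0.647%). The fold thresholds of the study with unadjusted p under 0.05 were also applied to edgeR's fit. Above 2-fold, 229 genes (1.83%) were then upregulated and 125 (0.999%) downregulated, and above 1.5-fold 599 (4.79%) and 317 (2.53%). The study used DESeq2, so these are not its own counts. The groups did not overlap for 1296 of the 1298 higher and for each of the 1619 lower genes, and for 58.8% of all genes tested.

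The split into higher and lower depended on the scaling. Scaling by library size only gave 2101 higher and 880 lower genes, which moved the share of lower calls from 55.5% to 29.5% and the median of all genes from 0.00 to 0.08. With DESeq2's size factors, 60.8% of the calls were lower. No gene called with TMM scaling was called in the opposite direction in any alternative. Of the 227 genes past 2-fold, 225 were also called with library size only. DESeq2 called 182 of them on all 16 libraries and 133 on the 4 libraries alone. For gene lists, counts with library size only are given below where the balance turned or a count of 5 or more moved by over 1.5 times. Counts also fell when 1 library was left out. Of 36 list counts of 5 or more, 19 moved by over 1.5 times, and these are given with the library concerned, written noTC 1, noTC 2, TC 1 or TC 2 after its dish and replicate. Of 36 list counts of 1 to 4, 19 moved by over 1.5 times, by at most 3 genes.

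**Figure D1:**
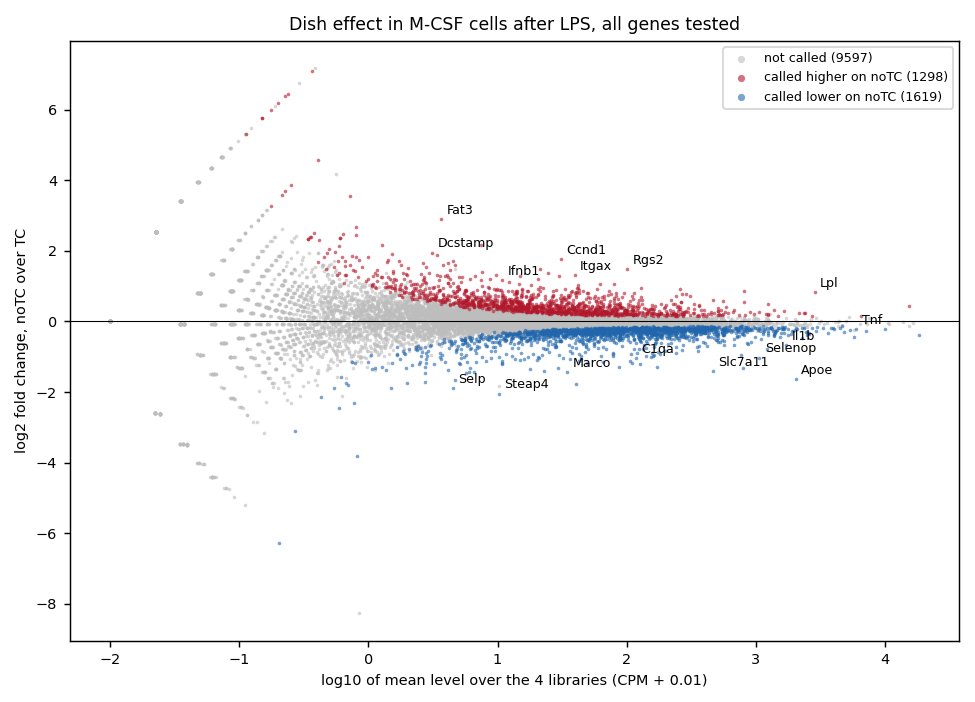
Dish effect of each gene tested in M-BMDMs upon LPS challenge. The x axis is the log10 of the mean level over the 4 libraries in CPM plus 0.01, the y axis the log2 fold change of noTC over TC, and red and blue points are the 1298 genes called higher and the 1619 called lower by edgeR. Most called genes lie close to 0, and abundant genes far from 0 include Lpl above and Apoe below.

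Most cell cycle genes differed, and nearly all of those that differed were higher on noTC. Ccnd1 (cyclin D1, ENSMUSG00000070348), the cyclin that carries mitogen signals into G1, had 52.6 and 43.8 CPM on noTC and 14.2 and 14.1 CPM on TC. Both noTC libraries lay far above both TC libraries, and the log2 fold change was 1.77 ± 0.11 (edgeR, adjusted p = 1.66e-10). Rrm2, the regulated subunit of ribonucleotide reductase that makes deoxynucleotides, had 37.3 and 33.2 CPM on noTC and 13.4 and 14.0 CPM on TC (1.37 ± 0.09, adjusted p = 2.55e-10 by edgeR). Ccne2, the cyclin of S phase entry, followed at lower levels, with 4.83 and 6.29 CPM on noTC against 1.92 and 3.37 CPM on TC (1.10 ± 0.22).

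Of 49 DNA replication genes tested, 30 were higher and none lower, with a median log2 fold change of 0.47 against 0.00 over all genes. Clspn, the checkpoint adaptor of the fork (1.08 ± 0.18), Mcm7, a subunit of the replicative helicase (0.95 ± 0.11), and Cdc45, its cofactor (0.95 ± 0.13), led this list. Mcm7 had 32.0 and 27.3 CPM on noTC and 17.2 and 13.2 CPM on TC, without overlap. In the list of mismatch, excision and recombination repair, 13 of 21 genes were higher (8 without TC 2) and none lower (median 0.55), led by Brca2 (1.08 ± 0.23), Neil3 (1.01 ± 0.18) and Rad54l (0.92 ± 0.13). Mitosis and cytokinesis had the highest share of calls of the 40 lists, with 41 of 45 genes higher and 1 lower (median 0.50).

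In this list Ccna2, the cyclin of S and G2 phase, was at 61.4 and 56.2 CPM on noTC and at 34.2 and 30.7 CPM on TC (0.85 ± 0.07), and the kinetochore and spindle gene Dlgap5 (0.78 ± 0.15) and the phosphatase gene Cdc25c (0.77 ± 0.24) came next. The exception was Pttg1 (securin), which was lower on noTC (-0.36 ± 0.07). Among 24 G1 cyclins, CDK inhibitors and E2F factors, 11 were higher (7 without TC 1) and 3 lower. E2f2 rose (1.0 ± 0.25), while Myc, which drives growth in many cell types, had 8.21 and 9.28 CPM on noTC and 18.7 and 17.96 CPM on TC (-1.07 ± 0.13). The CDK inhibitor Cdkn1a was slightly lower at 1501 and 1562 CPM against 1693 and 1757 CPM (-0.17 ± 0.05), a call that was lost with library size only. The tubulin genes, Tubb5 (0.79 ± 0.06) and Tuba1b (0.61 ± 0.06), and the chromatin proteins Hmga2 (1.07 ± 0.07) and Hmga1 (0.73 ± 0.06) were among the abundant genes that were higher on noTC.

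Promoters of the cell cycle genes were read from RefSeq windows (GRCm38.p6) that reach from 250 bases before to 50 bases after a gene's start, which exist for 9905 of the genes tested. The E2F motif, searched as GCGGGAA on both strands, was present in 15 of the 38 DNA replication genes with a window (39.5%) and in 9.67% of all tested genes. Of the 24 list members that were higher on noTC, 10 held it. The cell cycle homology region (CHR), searched as TTTGAA, was present in 28 of 37 mitosis genes (75.7%) and in 14.7% of all tested genes. Of the 33 mitosis genes that were higher on noTC, 25 held it (75.8%), much as in the whole list. Over all genes called higher, E2F was held by 12.7% and CHR by 19.2%, and over all genes called lower by 8.00% and 13.1%. A match is a string of letters and not a shown binding site. For each motif, the stretches below are those of the 3 called members with the largest fold among the 6 (E2F) and 15 (CHR) found with a match upstream of the start. They are in lower case with the matches of either strand in capitals. Windows on a single chromosome were left out of this choice, so a member there with a larger fold would not be printed. They show where these letters stand in promoters of genes that were higher on noTC.
Mcm7, E2F, chr5:138172012-138172078, minus strand: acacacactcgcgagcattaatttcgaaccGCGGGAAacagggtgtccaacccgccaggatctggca
Chaf1b, E2F, chr16:93883651-93883710, plus strand: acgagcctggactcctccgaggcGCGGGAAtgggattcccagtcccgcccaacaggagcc
Pola1, E2F, chrX:93632240-93632354, minus strand: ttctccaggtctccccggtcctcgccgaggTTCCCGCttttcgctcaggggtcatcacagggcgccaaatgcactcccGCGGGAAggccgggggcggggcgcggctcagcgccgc
Ncapd2, CHR, chr6:125191674-125191739, minus strand: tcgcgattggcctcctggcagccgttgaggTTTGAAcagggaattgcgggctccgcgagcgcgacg
Smc2, CHR, chr4:52439046-52439111, plus strand: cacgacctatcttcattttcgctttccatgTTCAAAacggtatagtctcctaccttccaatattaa
Kif11, CHR, chr19:37376333-37376381, plus strand: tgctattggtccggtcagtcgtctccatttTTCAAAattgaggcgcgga

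Chaf1b, a subunit of the histone chaperone CAF-1, and Pola1, the catalytic subunit of DNA polymerase alpha, had log2 fold changes of 0.90 and 0.89. The condensin genes Ncapd2 and Smc2 each had 0.69, and Kif11, the kinesin that separates spindle poles, 0.58. In Pola1 the E2F letters occur on both strands.

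Enzymes that feed DNA synthesis and growth were higher on noTC as well. In nucleotide synthesis, 17 of 25 genes were higher and none lower (median 0.43). Besides Rrm2, these included Ctps, which makes CTP (0.88 ± 0.17). Adssl1, an adenylosuccinate synthase, had 36.8 and 32.2 CPM on noTC against 24.3 and 20.4 CPM on TC (0.62 ± 0.09). Of 20 serine, folate, methionine and polyamine enzymes, 12 were higher and 2 lower (median 0.36).

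Mthfd1l, the mitochondrial enzyme that releases formate, had 19.5 and 17.3 CPM on noTC and 9.84 and 10.4 CPM on TC, without overlap (0.86 ± 0.11, edgeR, adjusted p = 4.23e-06). The serine synthesis enzyme Psph (0.91 ± 0.14) and the mitochondrial folate enzyme Aldh1l2 (1.51 ± 0.37) were higher. Among genes that ATF4 is known to induce, Asns (asparagine synthetase) had 86.5 and 82.7 CPM on noTC and 39.8 and 41.2 CPM on TC (1.06 ± 0.07), and the amino acid transporter Slc7a5 36.9 and 32.9 CPM against 19.8 and 18.2 CPM (0.87 ± 0.09). The list of ATF4 and unfolded protein response genes nevertheless held more lower than higher genes, with 12 of 28 lower, 4 higher and 12 not called (median -0.19). Its largest decrease was that of Slc7a11, described after the NRF2 and metal response genes. Endoplasmic reticulum genes such as Dnajb9 (-0.46 ± 0.09) and the phosphatase subunit Ppp1r15a (-0.46 ± 0.06) were lower.

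Lipid genes split. Lpl, lipoprotein lipase, was one of the most abundant genes that differed, with 3680 and 3620 CPM on noTC and 1998 and 2105 CPM on TC (0.83 ± 0.04, edgeR, adjusted p = 1.98e-11). In fatty acid synthesis and desaturation, 8 of 15 genes were higher (5 without noTC 1 or TC 2) and none lower (median 0.22), led by the desaturases Scd1 (0.84 ± 0.07) and Fads2 (0.79 ± 0.06). Apoe (ENSMUSG00000002985), which carries cholesterol out of macrophages, went the other way, with 914 and 1075 CPM on noTC and 3166 and 3038 CPM on TC. The TC libraries lay far above the noTC libraries without overlap, and Apoe had the lowest p of all genes tested (-1.64 ± 0.06, edgeR, adjusted p = 3.89e-13). Its neighbour Apoc2 (-1.77 ± 0.13) and the cholesterol exporter Abca1 (105 and 83.4 CPM against 198 and 175 CPM, -0.98 ± 0.10) were lower too.

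The list of LXR targets as a whole held 2 higher and 4 lower genes of 14, a balance that turned to 4 higher and 3 lower with library size only. Sterol synthesis had 2 higher and 8 lower of 24, all of the latter within 1.5-fold, and this direction turned with library size only, which gave 4 higher and 1 lower. The 8 lower genes became 2 without noTC 1 or TC 1, 1 without noTC 2 and 5 without TC 2. In glycolysis and hypoxia genes, 13 of 28 were higher (8 without noTC 1) and 4 lower (median 0.18). Pdk1, which keeps pyruvate from the mitochondrion, was higher (0.49 ± 0.07), and Pfkfb3, which makes the activator of phosphofructokinase, was lower with 111 and 112 CPM on noTC and 216 and 215 CPM on TC (-0.95 ± 0.06). Genes of the tricarboxylic acid cycle (2 higher and 2 lower of 21), oxidative phosphorylation (1 and 3 of 76) and cytosolic ribosomal proteins (0 and 3 of 78) had call shares at or under those of all genes. With library size only these counts were 5 and 2, 5 and 0, and 6 and 1, so the balance turned in oxidative phosphorylation and ribosomal proteins. Acod1, which makes itaconate, was lower by 0.21 ± 0.04 on the log2 scale. Ribosome biogenesis had 10 higher and 3 lower of 43 genes, led by Dkc1 (0.55 ± 0.11). It had 16 higher and 1 lower with library size only, and 6 higher without noTC 1 and 5 without TC 2.

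**Figure D2:**
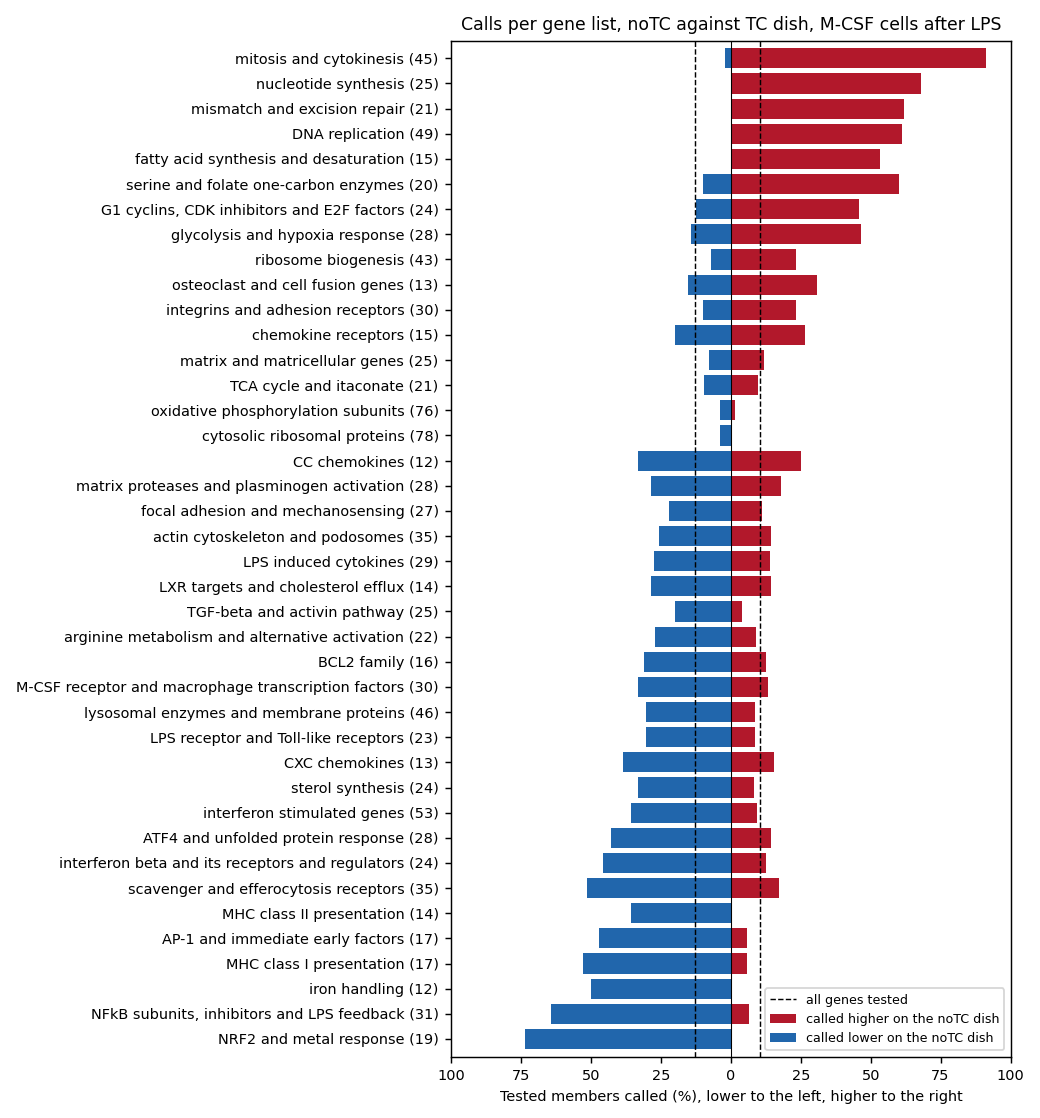
Share of the tested members of each of 40 gene lists that edgeR called higher (red, to the right) or lower (blue, to the left) on noTC in M-BMDMs upon LPS challenge, with the number of members tested in brackets. Dashed lines mark the shares over all genes tested, 10.4% higher and 12.9% lower. Mitosis, nucleotide synthesis and repair stand at the top. NRF2 and metal response genes, the list of NFκB subunits, inhibitors and LPS feedback genes, and iron handling stand at the bottom.

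Among the 40 pathway lists, that of NRF2 and metal response genes, called the NRF2 list below, had the largest share of lower calls. It holds Nfe2l2, the gene of NRF2 itself, and does not hold Slc7a11. Of 19 genes tested, 14 were lower on noTC and none higher (median -0.33), and with library size only 12 were lower and 1 higher. Srxn1 (sulfiredoxin, which repairs peroxiredoxins) had 121 and 128 CPM on noTC and 235 and 221 CPM on TC (-0.87 ± 0.06, edgeR, adjusted p = 5.36e-10). Both TC libraries were far above both noTC libraries. Hmox1, which breaks down heme, had 304 and 340 CPM against 521 and 460 CPM (-0.61 ± 0.06), and the NRF2 target Osgin1 (-1.19 ± 0.24) and the glutathione transferase gene Gsta3 (-1.18 ± 0.20) were lower at levels of 1.44 to 7.79 CPM.

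Slc7a11 (ENSMUSG00000027737), the cystine importer that supplies glutathione synthesis and that NRF2 and ATF4 are both known to induce, had 230 and 276 CPM on noTC and 678 and 673 CPM on TC. It showed one of the clearest separations of the data, with a log2 fold change of -1.41 ± 0.08 (edgeR, adjusted p = 1.26e-10). Iron handling genes included 6 lower of 12 and none higher. The iron exporter Slc40a1 (ferroportin) had 12.9 and 12.1 CPM on noTC and 33.8 and 32.0 CPM on TC (-1.40 ± 0.10), and Hfe was lower by 0.49 ± 0.10 on the log2 scale. Hmox1 belongs to both lists.

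The antioxidant response element (ARE), searched as TGACNNNGC on both strands, was present in the promoter windows of 9 of 16 NRF2 list genes (56.3%), in 8 of the 11 that were lower on noTC, and in 17.2% of all tested genes. Over all genes called lower the share was 19.4%, and over those called higher 18.6%. The 3 called members with the largest fold among the 6 found with a match upstream of the start are printed for the place of these letters. The matches are in capitals, and the same chromosome was left out of the choice. Osgin1 and Srxn1 were not among these 6, and whether they lack the letters or a window is not shown here. Slc7a11 is not a member of this list and took no part in this choice.
Gsta3, ARE, chr1:21240434-21240502, plus strand: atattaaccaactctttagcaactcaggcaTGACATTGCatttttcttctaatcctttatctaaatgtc
Txnrd1, ARE, chr10:82859084-82859152, plus strand: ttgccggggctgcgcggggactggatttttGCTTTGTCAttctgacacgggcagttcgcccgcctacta
Nfe2l2, ARE, chr2:75704865-75704913, minus strand: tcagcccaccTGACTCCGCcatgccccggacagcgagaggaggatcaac

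Txnrd1, thioredoxin reductase, had a log2 fold change of -0.58, and Nfe2l2, the gene of NRF2 itself, of -0.54.

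Cytokines and chemokines did not move as 1 group. Of 29 LPS induced cytokines, 4 were higher and 8 lower on noTC (median -0.10), and 1 higher and 5 lower without TC 1. Tnf had 5373 and 5705 CPM on noTC and 6404 and 6456 CPM on TC (-0.22 ± 0.06, edgeR, adjusted p = 0.0137), a call that was lost with library size only. Il1b, the precursor of IL-1β, differed more, with 1274 and 1378 CPM against 2007 and 2197 CPM (-0.66 ± 0.06, edgeR, adjusted p = 5.22e-08). Both TC libraries lay above both noTC libraries for Tnf and for Il1b.

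Il10, the main anti-inflammatory cytokine of macrophages, had 23.5 and 28.6 CPM on noTC and 44.1 and 53.7 CPM on TC (-0.90 ± 0.12), and the stress cytokine Gdf15 (-1.10 ± 0.13) and Il19 (-1.03 ± 0.29) were lower. The growth factor Hbegf, at 0.984 to 2.98 CPM (1.32 ± 0.23), Lif (0.95 ± 0.22) and Il23a (0.91 ± 0.26) were higher, the last from 1.23 and 1.16 CPM on TC to 2.57 and 1.95 CPM on noTC. The calls of Il23a and Lif were lost with DESeq2 on the 4 libraries alone. Il6 had 1325 and 1544 CPM on noTC and 1344 and 1642 CPM on TC, which overlap, and its difference did not pass (-0.06 ± 0.08, edgeR, adjusted p = 0.679). Il1a, with 465 and 473 CPM against 483 and 522 CPM, did not pass either (-0.10 ± 0.08, edgeR, adjusted p = 0.380).

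The neutrophil attractants Cxcl1 (398 and 497 CPM against 552 and 611 CPM, -0.38 ± 0.09), Cxcl2 (-0.31 ± 0.07) and Cxcl3 (125 and 156 CPM against 256 and 250 CPM, -0.85 ± 0.08) were lower on noTC. Among ligands of CXCR3, Cxcl9 (0.31 ± 0.08) and Cxcl11 (0.45 ± 0.09) went the other way, and these were the only CXC chemokines called higher. With DESeq2 on the 4 libraries alone, the calls of Cxcl1, Cxcl2 and Cxcl9 were lost. In all, 2 of 13 CXC chemokines were higher and 5 lower, and 3 of 12 CC chemokines were higher and 4 lower. With library size only CXC chemokines had 3 higher and 3 lower, and the balance of CC chemokines turned to 3 higher and 2 lower. The 5 lower CXC chemokines became 1 without noTC 1 and 3 without TC 2, and the 4 lower CC chemokines became 2 without noTC 1, TC 1 or TC 2. The monocyte attractant Ccl2 had 1497 and 1571 CPM on noTC and 1170 and 1268 CPM on TC (0.33 ± 0.07, edgeR, adjusted p = 0.00226), and Ccl7 (0.27 ± 0.08) and Ccl22 (0.65 ± 0.08) were higher. Ccl5 had 1534 and 1734 CPM on noTC against 2142 and 2054 CPM on TC (-0.36 ± 0.06), and Ccl24 was lower at 0.924 and 0.898 CPM against 3.00 and 3.08 CPM (-1.73 ± 0.39). Of 15 chemokine and formyl peptide receptors, 4 were higher and 3 lower. Ccr2 (1.33 ± 0.22) and Ccr1 (0.77 ± 0.17) were higher, and the formyl peptide receptors Fpr1 (64.4 and 70.2 CPM against 156 and 149 CPM, -1.18 ± 0.07) and Fpr2 (-0.66 ± 0.07) were lower.

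The list of NFκB subunits, inhibitors and LPS feedback genes is called NFκB feedback genes below for short. Of its members, 20 of 31 were lower and 2 higher on noTC (median -0.27), and with library size only 16 were lower and 2 higher. These counts were not split between subunits, inhibitors and other feedback genes. Irak3 (IRAK-M, which blocks MyD88 signaling) had 119 and 129 CPM on noTC and 215 and 195 CPM on TC (-0.73 ± 0.06), and Socs3, the inhibitor of IL-6 receptor signaling, 665 and 680 CPM against 1057 and 994 CPM (-0.61 ± 0.05). Neither gene's groups overlapped. The MAP kinase phosphatase Dusp1 (-0.79 ± 0.10) and the prostaglandin E synthase Ptges (-0.85 ± 0.10) were lower, and Dusp6 was higher (0.45 ± 0.12).

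Upstream, 2 of 23 LPS receptor and Toll-like receptor genes were higher and 7 lower, the latter including Tlr1 (-0.32 ± 0.06), Myd88 (-0.30 ± 0.05) and Map3k8 (-0.27 ± 0.05), while Cd180, a relative of TLR4 that can restrain it, was higher (0.40 ± 0.05). With library size only that list held 4 higher and 4 lower, and 4 were lower without noTC 1 or TC 2. AP-1 and immediate early factors had 8 lower of 17 and 1 higher (median -0.29). Fosl2 was at 24.9 and 22.8 CPM on noTC and 48.4 and 50.6 CPM on TC (-1.05 ± 0.07), and Ier3 (-0.98 ± 0.07) and Ier2 (-0.98 ± 0.12) were lower. Of the BCL2 family 5 of 16 were lower and 2 higher, among them the LPS induced survival genes Bcl2a1b (-0.58 ± 0.07), Bcl2a1a (-0.48 ± 0.08) and Bcl2a1d (-0.40 ± 0.07), near-identical copies whose reads the counting can split. Saa3, an acute phase gene of macrophages, had 440 and 479 CPM on noTC and 1198 and 1076 CPM on TC (-1.31 ± 0.09).

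Ifnb1 (ENSMUSG00000048806), the gene of IFN-β, had 14.4 and 15.8 CPM on noTC and 6.15 and 7.26 CPM on TC. Both noTC libraries were above both TC libraries, with a log2 fold change of 1.17 ± 0.18 (edgeR, adjusted p = 6.29e-05). Of 53 interferon stimulated genes, 5 were higher and 19 lower (median -0.12), a balance that moved to 7 higher and 8 lower with library size only. The 19 lower genes became 6 without noTC 1 and 10 without TC 2, and the 5 higher became 3 without noTC 2 or TC 1. Ifit1 had 4436 and 4394 CPM on noTC and 4309 and 4495 CPM on TC, which overlap (0.00 ± 0.04, edgeR, adjusted p = 0.975).

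Ifit2, at 5393 and 5552 CPM against 4662 and 5375 CPM, did not pass (0.13 ± 0.07, edgeR, adjusted p = 0.184), and passed with library size only. Ifit3 was higher with 1299 and 1357 CPM on noTC and 1092 and 1220 CPM on TC (0.20 ± 0.05), as were Ifit3b (0.36 ± 0.06), Ifit1bl1 (377 and 354 CPM against 196 and 231 CPM, 0.78 ± 0.07) and Oasl1 (0.30 ± 0.05). Ifit3 and Ifit3b are close copies, so reads may be split between them. Ifi35 (-0.35 ± 0.06), Mx2 (-0.34 ± 0.06) and Oas1b (-0.34 ± 0.10) had the largest decreases of this list. Irf7, which amplifies interferon production, had 729 and 804 CPM on noTC and 866 and 894 CPM on TC without overlap but did not pass (-0.20 ± 0.08, edgeR, adjusted p = 0.0626), although it passed with DESeq2 and with edgeR on the 4 libraries alone. Among 24 genes of IFN-β, its receptors and regulators, 3 were higher, namely Ifnb1, Irf8 (0.36 ± 0.05) and Socs1 (0.28 ± 0.07), and 11 were lower, with Jak1 at -0.40 ± 0.05. With library size only this list held 4 higher and 4 lower, and 6 were lower without noTC 1 and 5 without TC 1.

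The interferon stimulated response element (ISRE), searched as AAANNGAAA on both strands, was held by 31 of 41 interferon stimulated genes with a window (75.6%) and by 10.02% of all tested genes. It was held by 4 of 5 list members that were higher and by 8 of 12 that were lower. The 3 with the largest fold among the 12 called members found with an upstream match are printed, with the matches in capitals. They show that the letters stand in promoters of genes of either direction. The same chromosome was left out of the choice.
Ifit1bl1, ISRE, chr19:34602034-34602102, minus strand: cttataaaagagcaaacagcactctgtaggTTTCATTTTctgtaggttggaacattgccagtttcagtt
Ifit3b, ISRE, chr19:34607739-34607841, plus strand: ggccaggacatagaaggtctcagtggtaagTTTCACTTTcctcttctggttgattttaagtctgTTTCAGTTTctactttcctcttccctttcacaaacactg
Igtp, ISRE, chr11:58199493-58199555, plus strand: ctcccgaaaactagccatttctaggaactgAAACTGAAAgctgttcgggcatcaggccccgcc

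Igtp, an immunity related GTPase, was lower on noTC by 0.32 on the log2 scale. Among the other motifs, the shares in the list and in all tested genes were 5.88% and 1.35% for SRE (TCACNCCAC) in sterol synthesis. They were 26.9% and 2.83% for CARE (TGATGNAA) in ATF4 and unfolded protein response genes. For the κB site (GGANTTTCC) in NFκB feedback genes they were 19.2% and 1.63%, and for CLEAR (TCACGTGA) in lysosomal genes 16.7% and 2.12%. For the E-box (CACGTG, whose letters CLEAR contains) in ribosome biogenesis they were 23.7% and 11.7%.

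**Figure D3:**
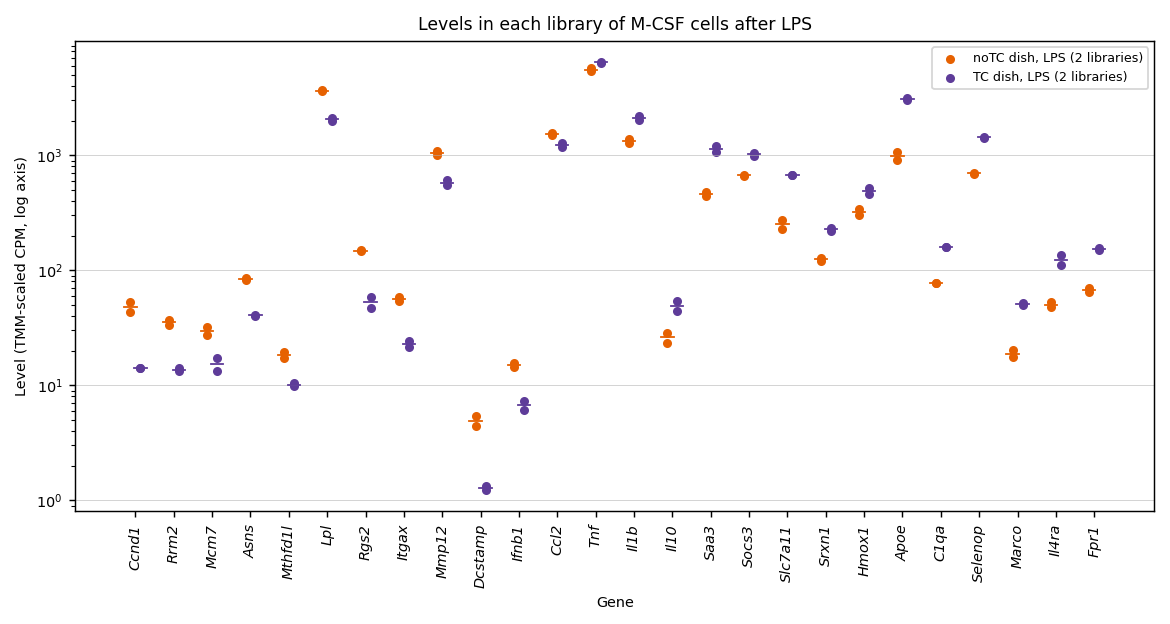
Level of 26 genes in each of the 4 libraries of M-BMDMs upon LPS challenge, in TMM-scaled CPM on a log axis, with a point for each library and a line for the mean of a dish. From left to right, Ccnd1 to Dcstamp, Ifnb1 and Ccl2 are higher on noTC, and Tnf to Fpr1 are lower. The 2 dishes do not overlap for any of the 26 genes, nor for 58.8% of all genes tested, and genes named by their fold were chosen on that condition.

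Scavenger and efferocytosis receptors, which bind dead cells and modified lipoproteins, differed in both directions with more of them lower on noTC. Of 35 genes, 18 were lower and 6 higher (median -0.22), and with library size only 16 were lower and 6 higher. Stab1, a receptor for phosphatidylserine, had 527 and 533 CPM on noTC and 1071 and 960 CPM on TC (-0.94 ± 0.05, edgeR, adjusted p = 9.61e-11). Marco, which binds bacteria and particles, had 20.1 and 17.6 CPM against 51.9 and 49.6 CPM (-1.43 ± 0.12). Neither overlapped between dishes.

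The complement gene C1qa had 77.3 and 77.9 CPM on noTC and 161 and 158 CPM on TC (-1.04 ± 0.08), C1qb 696 and 664 CPM against 1087 and 1043 CPM (-0.65 ± 0.07), and the mannose receptor Mrc1 109 and 88.5 CPM against 175 and 164 CPM (-0.78 ± 0.08). Higher on noTC were the bridging molecule Mfge8 (154 and 146 CPM against 98.9 and 96.6 CPM, 0.62 ± 0.05), the oxidized LDL receptor Olr1 (0.74 ± 0.10) and Cd5l, a secreted macrophage protein (6.93 and 7.38 CPM against 3.05 and 3.54 CPM, 1.12 ± 0.20). Selenop, the selenium carrier of plasma, had 693 and 707 CPM on noTC and 1435 and 1426 CPM on TC (-1.03 ± 0.05, edgeR, adjusted p = 9.96e-12). The libraries hardly varied within a dish and were far apart between dishes.

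Il4ra, the IL-4 receptor chain, had 53.0 and 47.7 CPM on noTC and 136 and 112 CPM on TC (-1.30 ± 0.08). The list of arginine metabolism and alternative activation, to which it belongs, held 2 higher and 6 lower of 22, and 3 lower without noTC 1 or TC 1. Of 30 genes of the M-CSF receptor and macrophage transcription factors, 10 were lower and 4 higher. Cebpb (75.1 and 75.7 CPM against 149 and 135 CPM, -0.91 ± 0.07), Cebpa (-1.07 ± 0.15) and Id3 (-1.20 ± 0.17) were lower, and Klf9 was higher (0.95 ± 0.15). MHC class II presentation had 5 lower of 14 and none higher, led by H2-Ab1 (-0.47 ± 0.08) and its chaperone Cd74 (238 and 245 CPM against 345 and 317 CPM, -0.45 ± 0.07). MHC class I presentation had 9 lower and 1 higher of 17, with Nlrc5, its transactivator, at -0.32 ± 0.06, but only 1 lower and 2 higher with library size only. The 9 lower genes became 1 without noTC 1, 5 without TC 1 and 4 without TC 2. The class I genes are close copies of one another, so their counts are uncertain. In the list of lysosomal enzymes and membrane proteins, 14 of 46 were lower and 4 higher, and 8 and 10 with library size only. Of these, 9 were lower without noTC 1, 7 without noTC 2 and 8 without TC 1. The cathepsin genes Ctsk (1.0 ± 0.13) and Ctsl (0.57 ± 0.05) and the proton pump subunit Atp6v0d2 (65.4 and 59.4 CPM against 35.1 and 36.0 CPM, 0.81 ± 0.06) were higher, and Ctsh was lower (-0.58 ± 0.06).

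Adhesion genes bind the cell to its surface and to other cells. Of 30 integrins and adhesion receptors, 7 were higher and 3 lower (median 0.05). Itgax, which encodes CD11c, a partner of the β2 integrin chain, had 58.8 and 54.1 CPM on noTC and 21.4 and 24.5 CPM on TC (1.31 ± 0.08, edgeR, adjusted p = 1.26e-10). The chain of LFA-1, Itgal, was opposite with 162 and 179 CPM on noTC and 313 and 313 CPM on TC (-0.88 ± 0.06). Both pairs lay far apart without overlap.

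Itga8 (1.37 ± 0.28), at 1.53 to 4.31 CPM, and Itgb7 (0.44 ± 0.08) were higher, and Itga9 (-1.46 ± 0.34) and Itgb5 (-0.38 ± 0.06) lower. Focal adhesion and mechanosensing genes held 3 higher (11.1%) and 6 lower (22.2%) of 27, against 10.4% and 12.9% of all genes. The linker Vcl (vinculin, 135 and 135 CPM against 178 and 173 CPM, -0.38 ± 0.06) and the kinase Lyn (-0.38 ± 0.05) were lower, and Parvg was higher (0.46 ± 0.09). Of 35 actin cytoskeleton and podosome genes, 5 were higher and 9 lower, and 8 and 4 with library size only. The higher genes were 3 without noTC 1 or TC 2, and the lower genes 4 without TC 1. Tpm1 (53.4 and 50.5 CPM against 29.8 and 27.9 CPM, 0.85 ± 0.08) stood out on the higher side and Cnn2 (-0.54 ± 0.08) on the lower. Matrix and matricellular genes had 3 higher and 2 lower of 25. Spp1 (osteopontin), at 16690 and 18830 CPM on noTC and 12623 and 13656 CPM on TC (0.43 ± 0.06), and the basement membrane collagens Col4a1 (0.68 ± 0.16) and Col4a2 (0.46 ± 0.10) were higher.

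Matrix proteases differed in both directions. Mmp12, the macrophage elastase, had 1097 and 1002 CPM on noTC and 547 and 604 CPM on TC (0.87 ± 0.06, edgeR, adjusted p = 4.54e-10). Mmp13, a collagenase, was opposite with 866 and 922 CPM against 1466 and 1620 CPM (-0.79 ± 0.06), as was the membrane protease Mmp14 with 71.2 and 63.7 CPM against 156 and 137 CPM (-1.12 ± 0.08). The plasminogen activator Plau (17.8 and 16.01 CPM against 8.27 and 7.15 CPM, 1.13 ± 0.10) and tissue factor F3 (0.91 ± 0.12) were higher. Over the list, 5 of 28 were higher and 8 lower, 6 and 6 with library size only, and 5 were lower without TC 2. In the TGF-β and activin pathway, 1 of 25 was higher and 5 lower (3 with library size only and without noTC 1 or TC 1), with Smad1 at -0.57 ± 0.09 and Bmp2 at 0.58 ± 0.13. Osteoclast and cell fusion genes had 4 higher and 2 lower of 13. Dcstamp, which is needed for macrophage fusion, had 5.44 and 4.44 CPM on noTC and 1.23 and 1.34 CPM on TC (1.94 ± 0.21).

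Outside the lists, the largest increases at 1 CPM or more were those of Pgm5 (1.39 and 1.25 CPM against 0.0984 and 0.116 CPM), a phosphoglucomutase-like protein of adherens junctions, and Fat3, a giant cadherin, with 7.08 and 5.74 CPM on noTC and 0.837 and 0.872 CPM on TC (2.90 ± 0.31). Pgm5 was under the floor of 3 counts in both TC libraries. Cpe, carboxypeptidase E (15.1 and 9.43 CPM against 2.71 and 2.73 CPM, 2.17 ± 0.21), and Rgs2, a regulator of G protein signaling (147 and 149 CPM against 47.2 and 58.9 CPM, 1.49 ± 0.08), followed at higher levels. Dhrs9, a retinol dehydrogenase, had 32.9 and 29.7 CPM on noTC and 11.7 and 10.4 CPM on TC (1.495 ± 0.10). The dishes did not overlap for any of these genes. That was a condition for naming genes by their fold, and it held for 58.8% of all genes tested. St3gal6, a sialyltransferase, passed more narrowly with 7.44 and 9.08 CPM against 5.31 and 5.23 CPM (0.65 ± 0.22, edgeR, adjusted p = 0.0353), and its call was lost with DESeq2 on all 16 libraries. The protocadherin Pcdh7 (346 and 332 CPM against 184 and 177 CPM, 0.91 ± 0.08) and Rgs1 (0.71 ± 0.08) were abundant members of this side.

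The largest decreases included Steap4, a metalloreductase of iron and copper (3.64 and 4.34 CPM on noTC and 17.3 and 15.9 CPM on TC, -2.05 ± 0.25), and Selp, P-selectin (2.05 and 1.80 CPM against 8.02 and 6.22 CPM, -1.89 ± 0.24). Slamf1, a receptor of the SLAM family, had 2.46 and 2.10 CPM against 7.38 and 6.91 CPM (-1.65 ± 0.24). The adhesion receptor Adgre5 (CD97) had 53.4 and 51.0 CPM on noTC and 104 and 103 CPM on TC (-0.98 ± 0.06), and Tma16, a ribosome assembly factor, 125 and 128 CPM against 236 and 243 CPM (-0.92 ± 0.05). In each of these genes both TC libraries were above both noTC libraries, under the same condition for naming.

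Genes were also sorted by their LPS response in the GM-CSF cells, whose libraries take no part in the dish comparison described here. Of 1494 genes raised more than 2-fold by LPS on both dishes in GM-CSF cells, 449 (30.1%) were lower and 116 (7.76%) higher on noTC in M-BMDMs upon LPS challenge, against 12.9% and 10.4% of all genes. Of 387 raised more than 8-fold, 91 (23.5%) were lower and 38 (9.82%) higher. Among 1246 genes that LPS lowered more than 2-fold, the balance was opposite, with 80 (6.42%) lower and 190 (15.2%) higher. With library size only, the first class held 274 lower and 166 higher genes, beside 880 lower and 2101 higher of all 12514 tested. The class raised more than 8-fold then held 59 lower and 48 higher, and the lowered class 57 lower and 252 higher.

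The dish effect upon LPS challenge was then set against that at steady state, to ask which dish differences were particular to LPS-treated cells. The steady state comparison has libraries of its own, and its dish effect was called for 2014 higher (16.1%) and 1384 lower (11.1%) genes. By the interaction of dish and LPS, 389 genes (3.11%) had a more positive and 936 (7.48%) a more negative dish effect upon LPS than at steady state, which became 764 and 486 with library size only. The NRF2 list differed between the states. At steady state 5 of 19 were higher and 3 lower on noTC, and 12 of 19 had a more negative effect upon LPS by the interaction (7 with library size only). Slc7a11, which is not in that list, had a steady state mean of 20.3 CPM on noTC and 20.8 CPM on TC. Its dish effect was -0.03 ± 0.11 there and -1.41 upon LPS. Tma16 likewise had -0.08 ± 0.08 at steady state, and Fpr1 -0.20 ± 0.13. For Apoe (-1.55 ± 0.06 at steady state), Stab1 (-0.80 ± 0.05) and Adgre5 (-0.83 ± 0.05), the interaction did not pass, and the dish effect was called in both states. The same held for Ccnd1 (2.04 ± 0.08), Hmga2 (1.21 ± 0.07), Itgax (1.60 ± 0.08), Asns (0.89 ± 0.07), Mthfd1l (0.81 ± 0.10), Adssl1 (0.82 ± 0.08), St3gal6 (0.75 ± 0.24) and Dhrs9 (1.80 ± 0.09).

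In DNA replication, 43 of 49 genes were higher on noTC at steady state (median 0.85) and 17 had a more negative effect upon LPS by the interaction (9 with library size only). NFκB feedback genes were 10 higher and 6 lower of 31 at steady state, and 16 had a more negative effect upon LPS (13 with library size only). Leaving out a library was not run for list counts of the interactions. The steady state values of LPS induced genes carry a limit. For 19 genes under 1 CPM in both vehicle-treated TC libraries and at a mean of 100 CPM or more in the 10 libraries that were LPS-treated or GM-noTC, the excess of the vehicle-treated noTC libraries over TC had a median of 0.600% of that mean. Whether these are transcripts of the cells or reads from other libraries cannot be told apart here, since the same genes set the estimate. Il1b, for example, had a steady state mean of 13.2 CPM on noTC and 0.940 CPM on TC. When that share was subtracted, an alternative chosen after seeing the data, its interaction went from -4.45 to -1.62 and still passed, while those of Il1a and Ccl5 no longer passed. At steady state, 12 of 14 tested heart and skeletal muscle genes were lower on noTC. Upon LPS none was called, but there the 16 listed genes summed to only 1.95 to 3.15 CPM. Of these, 8 had at most 3 counts in each of the 4 libraries. At such levels a dish effect upon LPS could hardly be called, so no difference between the states is read from it. For the 236 genes taken by the naming rule, the lower group mean of the 4 LPS libraries was set against the mean of the other 12 libraries. The lowest share was 1.63%, that of Ccr1. Whether reads of other libraries add to such levels was not tested.

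In GM-CSF cells upon LPS challenge, the dish effect was called for fewer genes, 351 in all (2.8%), 260 higher (2.08%) and 91 lower (0.727%). By the interaction of dish and growth factor upon LPS, 464 genes (3.71%) had a more positive and 860 (6.87%) a more negative dish effect in M-BMDMs, which became 962 and 471 with library size only. For the NRF2 list, GM-CSF cells had 1 higher and 1 lower of 19, and 13 had a more negative effect in M-BMDMs (10 with library size only). For NFκB feedback genes these numbers were 2 higher and none lower of 31, with 17 more negative in M-BMDMs (11 with library size only), and for scavenger receptors 4 higher and 1 lower of 35, with 15 more negative under either scaling. Apoe had a dish effect of -0.01 ± 0.06 in GM-CSF cells upon LPS, with means of 371 CPM on noTC and 373 CPM on TC. Slc7a11 had -0.02 ± 0.08, Il4ra 0.01 ± 0.08, Fpr1 0.02 ± 0.06, Itgax -0.03 ± 0.06 and Mmp12 0.06 ± 0.06, none of which passed.

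Some cell cycle genes differed between the growth factors as well, while most were not called by this interaction. In DNA replication no gene was called in GM-CSF cells, and 15 of 49 had a more positive effect in M-BMDMs. In mitosis 9 of 45 were higher on noTC in GM-CSF cells too. Of the 45, 9 had a more positive and 1 a more negative effect in M-BMDMs. Hmga2 was lower on noTC in GM-CSF cells (-1.05 ± 0.27) at means of 0.790 and 1.63 CPM, opposite to M-BMDMs. Ccnd1 (0.96 ± 0.15), Dhrs9 (0.90 ± 0.10), Lpl (0.20 ± 0.04), Mthfd1l (0.63 ± 0.13), Adssl1 (0.81 ± 0.11) and St3gal6 (0.82 ± 0.21) were higher on noTC in GM-CSF cells as in M-BMDMs, and the interaction did not pass for the last 3. Il23a was higher as well, at means of 62.5 CPM on noTC and 41.0 CPM on TC (0.61 ± 0.09).

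**Figure D4:**
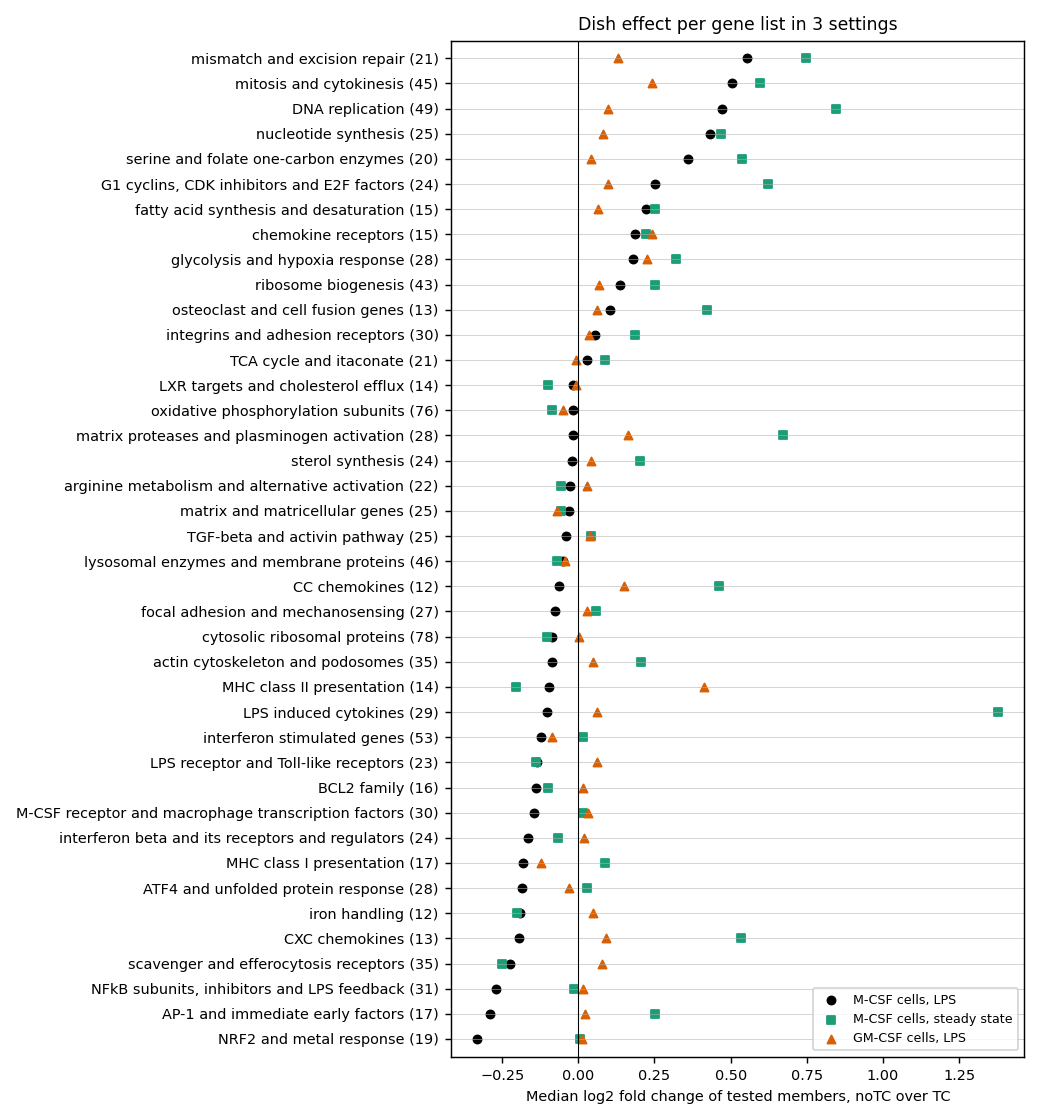
Median log2 fold change of noTC over TC of the tested members of each of 40 gene lists, in M-BMDMs upon LPS challenge (black circles), in M-BMDMs at steady state (green squares) and in GM-CSF cells upon LPS challenge (orange triangles). The comparisons have no library in common but come from the same fit. NRF2 and metal response genes are at -0.33 in M-BMDMs upon LPS and at 0.00 and 0.01 in the other settings. LPS induced cytokines are at 1.38 at steady state, where the noTC values carry the limit given above.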

How the data were processed

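RNA-seq of 16 libraries in 8 groups was used. Per the methods of the study, mRNA enriched with oligo(dT) was sequenced, and reads were aligned with HISAT2 and quantified with RSEM. The submitters' processing notes also name fastp 0.18.0, Bowtie2 2.2.8 and StringTie 1.3.1, without a role. The table deposited by the authors was taken to hold expected counts per gene, not normalized, since 6.56 to 6.79% of genes had values that were not whole in the 4 LPS libraries of M-CSF cells. They were rounded to whole counts here. The genome build and the strand setting are not given in the sources used here, so reads of overlapping or near-identical genes can be shared, and no gene coordinates other than RefSeq's promoter windows are printed. The table has Ensembl identifiers paired with symbols.

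Genes were kept by edgeR's filterByExpr (12514 of the 16756 with a count) and scaled by TMM factors, which were 0.778 to 0.842 in the 4 LPS libraries of M-CSF cells. A quasi-likelihood fit over the 8 groups without a replicate block (edgeR 4.0.16, R 4.3.3) had a common dispersion of 0.00226. Calls used a BH-adjusted p under 0.05. The interactions of dish with LPS and with growth factor were contrasts of the same fit. Gene lists (40 of pathways, 11 of markers) were described by counts and medians without a test. A self-test on simulated counts was run.

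The 4 libraries, gene lists and motifs were chosen with earlier results of these data known, and the ARE motif and the shortened ISRE and κB letters were set after the data were seen. Named genes were taken by a rule: in each direction, per list up to 3 called genes and over all genes 12 called genes with the largest fold, both at 1 CPM or more in the higher group and without overlap, the 8 with the lowest p, the 8 called genes above 1.5-fold with the highest mean CPM, and whatever their result 16 genes that the study's text names. It took 236 genes, of which 156 are named, and a few are not reported here. Genes printed only with a promoter, and the single called markers Lcn2, Pdgfrb, Vwf and Kdr, were named after their values were seen.

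The fit was repeated with size factors of DESeq2, with library size only, without the filter, with DESeq2 1.42.0 on 16 or 4 libraries, edgeR on 4 libraries, a replicate block, the fold thresholds of the study, and leaving out each library. Subtraction from the vehicle-treated noTC libraries of 0.600% of the mean of other libraries was added after the data were seen.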

Additional observations from a re-analysis of the deposited data

Results flagged for a closer look

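For the 8 genes per direction with the lowest p and the 16 that the study discusses, 32 in all, the dish effect in M-BMDMs upon LPS was tested against that at steady state and against that in GM-CSF cells upon LPS. By edgeR's interaction test at an adjusted p under 0.05, it differed for 18 and 21 of them. Differences are given on the log2 scale, as the effect upon LPS in M-BMDMs minus the other.

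Against steady state, a more negative dish effect upon LPS was found for Slc7a11 (-1.38), Fpr1 (-0.98), Tma16 (-0.84), Il4ra (-0.78), Irf7 (-0.60), Mmp12 (-0.36) and Lpl (-0.29). For Mmp12 and Lpl the noTC level was above TC in both states, by less upon LPS. The effect was more positive for Rgs2 (0.75), Rrm2 (0.36), Ifit2 (0.31), Ifit3 (0.26) and Selenop (0.22). Cytokine genes had the largest differences, at -7.89 for Il6, -5.02 for Il1a, -4.45 for Il1b, -2.19 for Ccl2, -1.13 for Tnf and -1.03 for Ccl5. In the vehicle-treated noTC libraries, 19 genes near 0 on TC had a median excess of 0.600% of their mean in other libraries, which may be cell transcripts or reads of those libraries and cannot be told apart. After subtraction of that share, an alternative chosen after seeing the data, the interaction still passed for Il6, Il1b (-1.62), Ccl2 (-1.90) and Tnf (-0.70), and did not pass for Il1a and Ccl5. The value of Il6 is fitted against steady state TC libraries at a mean of 0.0199 CPM, under 3 counts, and depends on edgeR's prior count, so that it is no bound.

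Against GM-CSF cells upon LPS, the dish effect in M-BMDMs was more negative for Apoe (-1.63), Slc7a11 (-1.39), Il4ra (-1.31), Fpr1 (-1.20), Stab1 (-1.17), Adgre5 (-0.92), Selenop (-0.90), Il1b (-0.72), Tma16 (-0.65) and Ccl5 (-0.26). It was more positive for Hmga2 (2.12), Asns (1.40), Itgax (1.33), Rgs2 (1.11), Rrm2 (1.07), Ccnd1 (0.81), Mmp12 (0.80), Lpl (0.63), Dhrs9 (0.60), Ccl2 (0.42) and Ifit2 (0.30). With library size only, the difference of Ccl5 no longer passed. Hmga2 was called in opposite directions in the 2 kinds of cells, at a mean of 0.790 and 1.63 CPM in GM-CSF cells.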

How the results depend on the processing

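With TMM scaling 1298 genes were higher and 1619 lower on noTC. Library size only gave 2101 and 880, and DESeq2 on the 4 libraries alone 776 higher genes, and 1108 lower. Fold thresholds by construction lowered the counts to 229 and 125 (2-fold, unadjusted p), 599 and 317 (1.5-fold, unadjusted p), and 146 and 81 (2-fold, BH-adjusted p). Leaving out 1 library gave 770 to 1011 higher and 927 to 1185 lower genes, with the lowest counts without M-noTC-LPS replicate 1, and 831 higher without M-TC-LPS replicate 1. The lone library of a group is then assumed to vary like the other groups. For the interaction of dish and LPS, library size only gave 764 more positive and 486 more negative genes, and leaving out 1 library 198 to 354 and 520 to 787. The former was moved over 1.5 times by M-noTC replicates 1 (198) and 2 (250), M-TC replicates 1 (220) and 2 (237), M-noTC-LPS replicate 1 (233) and M-TC-LPS replicate 1 (209), the latter by M-noTC replicates 1 (520) and 2 (570) and M-TC replicates 1 (537) and 2 (545). For dish and growth factor the counts were 962 and 471 with library size only, and 274 to 429 and 561 to 730 on leaving out 1 library, moved over 1.5 times by M-noTC-LPS replicate 1 (274), M-TC-LPS replicate 1 (290), GM-noTC-LPS replicate 1 (302) and GM-TC-LPS replicate 1 (281, and 561 more negative). In every other alternative run, these 6 counts stayed within 1.5 times. Of the 231 named genes called, the call was lost for 21 with library size only, 12 with DESeq2 on 16 libraries, 32 with DESeq2 on 4, and 35 to 47 on leaving out 1 library. Ifit1 and Il6, which were not called, changed sign. Ifit1 was at -0.016 with DESeq2's size factors, at -0.016 with DESeq2 on 16 libraries, and at -0.024 to 0.036 on leaving out 1 library. Il6 was at 0.030 with library size only and at -0.19 to 0.096 on leaving out 1 library. Leaving out a library leaves fewer samples, and otherwise the cause was not tested. With the replicate number as a block, 1296 genes were higher and 1620 lower, and 1 named gene, Egr1, lost its call. Deviations of same-numbered libraries of the M-BMDM groups upon LPS correlated at 0.00904 across genes. That value cannot tell whether same-numbered libraries share a mouse or culture day, and they were not treated as pairs. Levels near 0.174 CPM or below rest on 3 counts or fewer.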
